A study of Mus musculus with 4 samples.

Results

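Genes of cholesterol synthesis and targets of SREBP2 were examined in NIH/3T3 cells after knockdown of *Setd2*, which encodes the histone methyltransferase that deposits H3K36me3. The set holds 8 genes (*Srebf2*, *Insig1*, *Hmgcs1*, *Idi1*, *Fdps*, *Sqle*, *Lss* and *Cyp51*), chosen by name, and every tested transcript of each was used, which gave 12 of the 34200 transcripts and 8 of the 21945 genes of the table. NIH/3T3 is an immortalised line of mouse fibroblasts. KD cells received a mix of 2 *Setd2*-specific siRNAs and WT cells a Scrambled, non-targeting siRNA, both at 10 nM with the same lipid reagent, so that transfection is common to the groups, and polyadenylated RNA was collected 48 h later from 2 KD and 2 WT libraries. The paper reports transfections in triplicate but does not say which of them gave each library. It is thus not stated that the 2 libraries of a group came from separate cultures. The errors below combine the spread between 2 libraries of a group, which may be technical, with the spread of other transcripts of similar level. The depth of each library is unknown, and no value of an individual library entered the analysis.

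Cells build cholesterol from acetyl-CoA through mevalonate, isoprenoid diphosphates, squalene and lanosterol. SREBP2, the product of *Srebf2*, is a membrane-bound transcription factor that SCAP escorts from the endoplasmic reticulum to the Golgi when sterols are scarce, where it is cut and released to switch on nearly all genes of the route. INSIG1 holds the SCAP and SREBP complex back in the endoplasmic reticulum, and *Insig1*, *Srebf2* and the genes of the enzymes are themselves targets of SREBP2, often through promoters that combine a sterol regulatory element with a CCAAT box, the binding site of NF-Y.

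The promoters of 4 of the genes are shown, since the synthesis genes are usually switched together through such elements while their transcripts here had differences of opposite sign. The log2(fold change) was −0.47 for *Idi1*, −0.35 for *Cyp51* and 0.25 for *Lss*, none of which passed the test. The contrast in sign depended on the centring, since relative to *Actb* each was negative (−0.93, −0.80 and −0.21). *Hmgcs1* was the only 1 of the 6 genes with a promoter at hand that matched TCACNCCAC, the only form of sterol element searched. Genes without this match may hold another form of the element. Each stretch of 200 bases ends 50 bases into the RefSeq transcript and is written 5′ to 3′ on the strand of the gene, with CCAAT boxes (ATTGG when on the other strand) and the sterol element TCACNCCAC in capitals. In RefSeq's GRCm38.p6 they lie at chr13:8885456-8885655 on the plus strand, chr5:4104648-4104847 on the minus strand, chr10:76531455-76531654 on the plus strand and chr13:119690201-119690400 on the plus strand.
Idi1: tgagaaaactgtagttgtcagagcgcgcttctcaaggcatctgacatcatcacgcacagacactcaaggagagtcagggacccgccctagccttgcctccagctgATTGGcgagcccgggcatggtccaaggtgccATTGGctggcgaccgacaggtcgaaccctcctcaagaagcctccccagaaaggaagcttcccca
Cyp51: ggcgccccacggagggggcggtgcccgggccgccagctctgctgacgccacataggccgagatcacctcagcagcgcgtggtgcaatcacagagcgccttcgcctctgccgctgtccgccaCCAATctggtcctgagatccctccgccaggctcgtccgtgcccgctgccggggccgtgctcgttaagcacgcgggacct
Lss: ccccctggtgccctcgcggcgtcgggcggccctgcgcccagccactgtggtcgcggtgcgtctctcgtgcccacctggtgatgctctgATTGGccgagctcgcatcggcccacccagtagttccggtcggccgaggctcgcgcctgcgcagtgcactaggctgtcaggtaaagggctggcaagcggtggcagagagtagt
Hmgcs1: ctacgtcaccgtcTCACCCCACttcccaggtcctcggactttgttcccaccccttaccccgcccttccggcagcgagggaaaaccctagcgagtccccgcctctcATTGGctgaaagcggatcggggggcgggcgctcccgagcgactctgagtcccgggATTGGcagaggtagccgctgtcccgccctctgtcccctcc

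RefSeq promoters, from 250 bases before to 50 after the start, were found for 6 of the 8 genes, all but *Sqle* and *Fdps*. The letters CCAAT were present on either strand in 6 of these 6 promoters, against 37.4% of the 32851 mouse promoters in the table. The letters GGGCGG, the core of a GC box, were present in 6 of 6, against 35.7% of all promoters. The letters TCACNCCAC were found only in *Hmgcs1* among the 6, with their first base 137 bases before the start, and in 1.24% of all promoters. No match of one motif overlapped a match of another in these 6 promoters. The CCAAT boxes of *Idi1* began 14 and 45 bases before the start, that of *Cyp51* 29, that of *Lss* 62 and that of *Srebf2* 135 bases before it. The starts used by RefSeq lay 2 to 105 bases from those of the transcripts quantified here, and a match in these windows is a description and not a measured binding site.

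All values below are computed from the authors' mean and variances of each transcript on the natural log scale of estimated counts scaled between libraries, called normalised counts here, and levels are geometric means over the 2 libraries of a group. Only the sign of a difference was taken from their fitted effect, read as KD minus WT, the reading under which *Setd2* falls. The level of *Setd2* (ENSMUST00000153838.7, chromosome 9, 110532597 to 110618633) was 923 normalised counts in KD and 3680.4 in WT, a log2(fold change) of −1.99 (standard error 0.08, 95% confidence interval −2.21 to −1.78, adjusted p = 0.0144). Across the table, limma's moderated test with Benjamini-Hochberg adjustment called 9.68% of transcripts at an adjusted p under 0.05, 5.44% as higher and 4.24% as lower in KD. All 7 fibroblast markers examined (*Col1a1*, *Col1a2*, *Thy1*, *Pdgfra*, *Pdgfrb*, *Vim* and *S100a4*) were among the tested genes, with mean levels of 3112 to 280868, and 3 of the 7 were called, 1 as higher and 2 as lower, against 13.2% of all genes. Their summed level was 733490 in KD and 969794 in WT, and its part in the results below was not tested. Of 16 markers of epithelial, macrophage, endothelial, liver and fat cells, 9 were tested, none above a mean level of 347, and 0 of these 9 were called. In bulk RNA, fewer cells that express a gene and less RNA per cell cannot be told apart.

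Of the 12 transcripts of the 8 genes, 1 passed the test, a minor isoform of *Srebf2* that was higher in KD, so the share called (1 of 12) stood near the 9.68% of the whole table. The most abundant transcript of each gene was higher in KD for *Lss*, *Srebf2*, *Fdps* and *Sqle* and lower for *Idi1*, *Cyp51*, *Insig1* and *Hmgcs1*, with log2(fold changes) from −0.47 to 0.25 and a median of −0.05, against −0.03 for the most abundant transcripts of all genes tested. None of these 8 transcripts passed the adjusted threshold. Their median level was 17824 normalised counts, against 193 for the most abundant transcripts of all genes tested. Over all transcripts averaging 100 or more normalised counts, the median log2(fold change) was 0.05. The 95% confidence intervals of *Idi1*, *Cyp51* and *Insig1* lay below 0 and those of *Srebf2* and *Fdps* above it before adjustment. In all, 6 of the 12 transcripts had an unadjusted p under 0.05, against 28.2% of all transcripts.

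**Figure D1:**
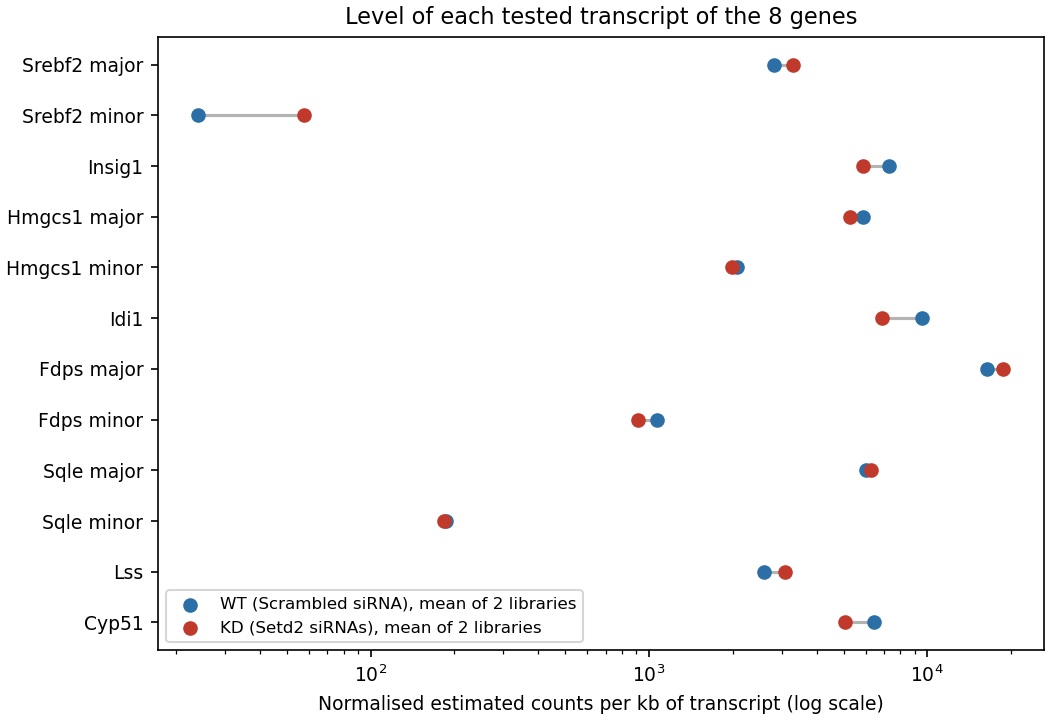
Level of each tested transcript in normalised counts per kilobase of annotated transcript (horizontal, log scale), with 1 point for the mean of the 2 KD libraries and 1 for the mean of the 2 WT libraries. The pairs of points lie close together for all transcripts but the minor one of *Srebf2*, and *Fdps* has the highest level per kilobase.

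The 8 genes were among the most abundant of the table. The mean level of each most abundant transcript stood at or above the 98.2 percentile of all transcripts tested. Compared per kilobase of transcript, with the transcripts of each gene added up, *Fdps* had the highest level, 19686 in KD and 17435 in WT, and *Lss* the lowest, 3071 in KD and 2584 in WT. The other 6 genes had from 2829 (*Srebf2*, WT) to 9538 (*Idi1*, WT) normalised counts per kilobase. *Idi1* stood above *Hmgcs1* in WT, 9538 against 7938, and below it in KD, 6886 against 7249.

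*Srebf2* encodes the factor itself and lies on chromosome 15. Its main transcript, ENSMUST00000023100.7 (82147181 to 82205379, plus strand, 19 exons), made up 99.0% of the summed level of the gene. Its level was 16722 normalised counts in KD and 14238 in WT, a log2(fold change) of 0.23 (standard error 0.09, 95% confidence interval 0.004 to 0.46, adjusted p = 0.172). The spread between libraries of a group was 0.10 on the log2 scale (SD), and the difference did not pass the adjusted threshold.

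The minor *Srebf2* isoform, ENSMUST00000229336.1, has 21 exons and a coding length of 3288 bases, against 3390 in the main one. It had 233 normalised counts in KD and 97.0 in WT, a log2(fold change) of 1.26 (standard error 0.23, 95% confidence interval 0.66 to 1.86, adjusted p = 0.0426). It made up 1.37% of the *Srebf2* level in KD and 0.677% in WT. The uncertainty of assigning reads to this isoform, as Kallisto estimated it, was 1.55 on the log2 scale (SD), larger than the difference and than the spread of 0.27 between libraries of a group. The call was lost when the variance was not allowed below that uncertainty (adjusted p = 0.150), a setting chosen after the values were seen that called 14.6% of all transcripts, and in a Wald-type test that contains it (adjusted p = 0.722), which called 18.2% of all transcripts.

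*Insig1*, the sterol-sensitive anchor of SCAP, had a single tested transcript (ENSMUST00000059155.10, chromosome 5, 28071363 to 28078662, plus strand). Its level was 15830 normalised counts in KD and 19592 in WT. The log2(fold change) was −0.31 (standard error 0.09, 95% confidence interval −0.53 to −0.08, adjusted p = 0.0959), a change of −19.2% in level. *Insig1* and the main *Srebf2* transcript had differences of opposite sign, neither of them past the adjusted threshold. The sign for *Srebf2* depended on how the differences were centred, as given below.

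Of the 3 mevalonate pathway enzymes, *Hmgcs1* encodes the cytosolic HMG-CoA synthase. Its transcripts ENSMUST00000179869.2 and ENSMUST00000224188.1 on chromosome 13 have the same coding length of 1560 bases and held 72.0% and 28.0% of the gene's level. The first had 17077 normalised counts in KD and 19050 in WT (log2(fold change) −0.16, 95% confidence interval −0.35 to 0.04, adjusted p = 0.250). The second had 6880.3 in KD and 7162 in WT (−0.06, interval −0.26 to 0.14, adjusted p = 0.667). Both intervals contained 0, and the share of the second isoform was 28.7% in KD and 27.3% in WT.

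*Idi1* encodes isopentenyl-diphosphate isomerase, which interconverts the 5-carbon building blocks of isoprenoids, and its transcript ENSMUST00000169314.8 (chromosome 13, 8885501 to 8892451, plus strand) was the only one tested. The level was 20844 normalised counts in KD and 28873 in WT. This was the largest difference among the most abundant transcripts of the 8 genes, with a log2(fold change) of −0.47 (standard error 0.10, 95% confidence interval −0.74 to −0.20, adjusted p = 0.0583), or −27.8% in level with an interval from −40.0% to −13.2%. The spread between libraries of a group was 0.13 (SD, log2 scale).

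*Fdps* encodes farnesyl diphosphate synthase, which supplies the sterol branch as well as protein prenylation. Its main transcript ENSMUST00000081848.12 on chromosome 3 (89093588 to 89101959, minus strand) had 23225 normalised counts in KD and 20243 in WT, a log2(fold change) of 0.20 (standard error 0.07, interval 0.01 to 0.38, adjusted p = 0.153). The other isoform, ENSMUST00000196709.4, with the same coding length of 1059 bases and 5.92% of the level, had a log2(fold change) of −0.23 (interval −0.76 to 0.30, adjusted p = 0.509). The isoforms differed in sign, and whether their differences differ from each other was not tested.

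Among the enzymes that turn squalene into sterols, *Sqle* encodes squalene epoxidase, a rate-limiting step. Its main transcript ENSMUST00000022977.13 (chromosome 15, 59315081 to 59331192, plus strand) had 17314 normalised counts in KD and 16637 in WT, a log2(fold change) of 0.06 with a 95% confidence interval from −0.12 to 0.24 (adjusted p = 0.640). The minor isoform, ENSMUST00000100640.4, held 2.79% of the level and had a log2(fold change) of −0.03 (interval −0.37 to 0.32, adjusted p = 0.927). The interval of the main transcript leaves room for a change of up to 18.1% upwards or −8.28% downwards.

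*Lss* encodes lanosterol synthase, which closes the sterol rings, and had a single tested transcript of 22 exons (ENSMUST00000048678.6, chromosome 10, 76531607 to 76555479, plus strand). Its level was 14332 normalised counts in KD and 12060 in WT. The log2(fold change) was 0.25 (standard error 0.10, 95% confidence interval −0.02 to 0.52, adjusted p = 0.202).

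*Cyp51* encodes the lanosterol demethylase that acts on the product of *Lss*. Its transcript ENSMUST00000001507.4 (chromosome 5, 4081145 to 4104746, minus strand) had 19912 normalised counts in KD and 25319 in WT. The log2(fold change) was −0.35 (standard error 0.09, 95% confidence interval −0.57 to −0.12, adjusted p = 0.0770), or −21.4% in level. The consecutive enzymes *Lss* and *Cyp51* had differences of opposite sign, and the intervals of the 2 genes did not overlap. The difference between them was not tested since the genes share their libraries. Relative to *Actb*, both were negative (−0.21 for *Lss* and −0.80 for *Cyp51*).

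The calls for *Idi1*, *Cyp51* and *Insig1* depended on how the variance was handled, and also on the transcripts tested and on centring. With the variance held at or above the read-assignment uncertainty, all 3 passed as lower in KD (adjusted p = 0.00126, 0.0114 and 0.0264), which made 3 of the 12 transcripts, against 14.6% of all transcripts. Their own spread (SD 0.13, 0.10 and 0.10) already exceeded that uncertainty (0.01 each). The setting thus acted on them through the variance prior fitted to all transcripts and through the adjustment. In the Wald-type test the same 3 of 12 were called (adjusted p = 0.00227, 0.00372 and 0.00955), against 18.2% of all transcripts. That test takes p-values from a normal distribution and makes no allowance for the small number of libraries. When testing was limited to the 18808 transcripts that averaged 100 or more normalised counts, of which 26.4% were called, *Idi1* and *Cyp51* passed (adjusted p = 0.0302 and 0.0464) and *Insig1* did not (adjusted p = 0.0571). The minor *Srebf2* isoform was called as higher there too (adjusted p = 0.0209), so that 3 of the 12 transcripts passed, a share near that background.

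**Figure D2:**
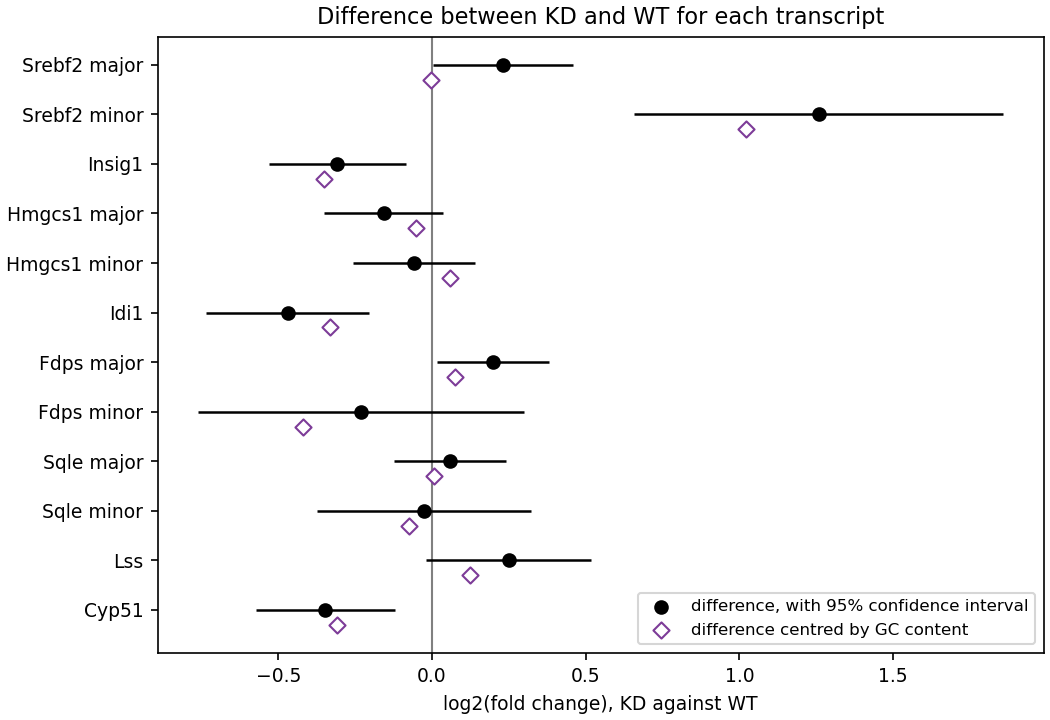
Log2(fold change) of KD against WT (horizontal) for each tested transcript, as a filled point with its 95% confidence interval, and the same difference centred on transcripts of similar GC content as an open diamond. The filled points of *Idi1*, *Cyp51* and *Insig1* lie at −0.47, −0.35 and −0.31, and the diamond of the main *Srebf2* transcript lies at −0.003.

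The differences of the 8 genes varied with the base composition of their transcripts. The 4 transcripts with a difference below 0, none of which passed the test, had a GC content of 41.9% (*Idi1*), 43.4% (*Hmgcs1*), 46.2% (*Cyp51*) and 48.2% (*Insig1*). The 4 with a difference above 0, which did not pass either, had 49.3% (*Sqle*, whose interval contained 0), 52.2% (*Lss* and *Fdps*) and 57.9% (*Srebf2*). Spearman's rho between GC content and log2(fold change) was 0.857 and Pearson's r was 0.848 over these 8 transcripts, which share their libraries and are not independent replicates.

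The same relation ran through the whole table. Over the 18430 transcripts of known sequence that averaged 100 or more normalised counts, Spearman's rho was 0.342. The median log2(fold change) was −0.27 in the tenth of these transcripts with the lowest GC content and 0.23 in the tenth with the highest.

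After centring on the running median of transcripts with similar GC content, *Idi1* had a log2(fold change) of −0.33, *Cyp51* of −0.31 and *Insig1* of −0.35, with adjusted p-values of 0.134, 0.114 and 0.0890. The differences of *Lss* (0.12), *Fdps* (0.07), *Hmgcs1* (−0.05) and *Sqle* (0.007) became smaller, and that of the main *Srebf2* transcript changed from 0.23 to −0.003. Among the most abundant transcripts, *Insig1* was the only 1 of the 8 whose difference became larger with centring. None of the 12 transcripts was called after centring. The part of base composition in these differences was not tested.

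**Figure D3:**
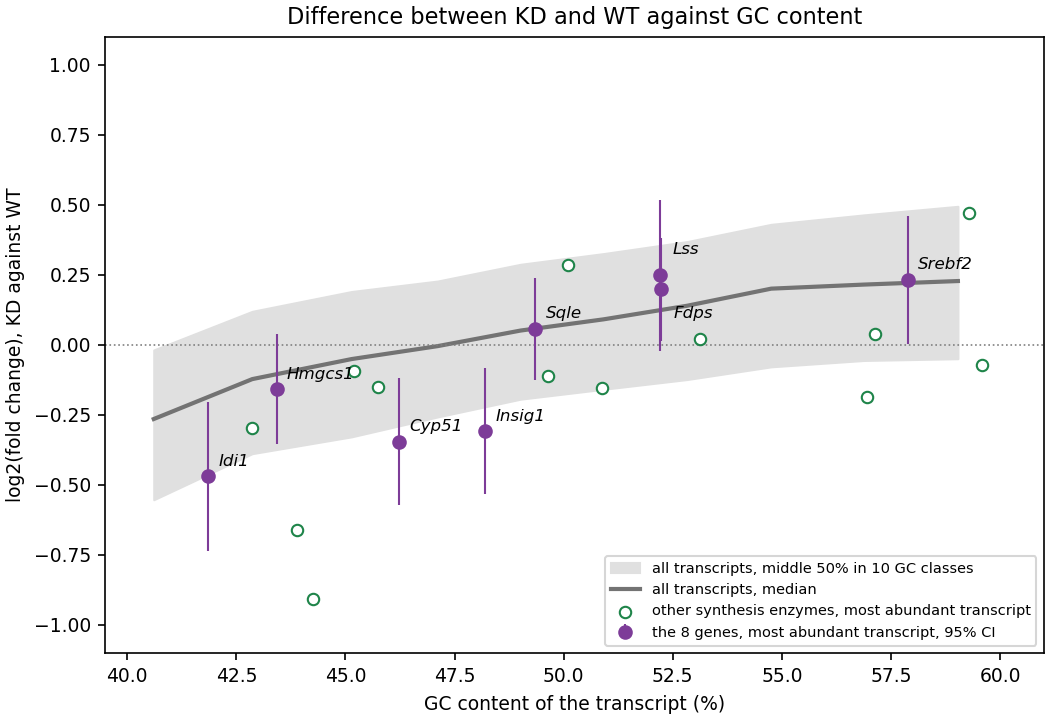
GC content of a transcript in percent (horizontal) against the log2(fold change) of KD against WT (vertical) for the most abundant transcript of the 8 genes with 95% confidence intervals and for other synthesis enzymes, over the median and the middle 50% of transcripts averaging 100 or more normalised counts in 10 GC classes. The median rises from −0.27 to 0.23, and *Idi1*, *Cyp51* and *Insig1* lie below the middle 50% of their class.

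Other genes of the pathway were taken from lists by role, and a gene counted as higher or lower when 1 or more of its transcripts passed the test in that direction. Of all genes tested, 7.47% had a higher transcript, 5.93% a lower one and 13.2% either. Of 15 other enzymes listed between acetyl-CoA and cholesterol, all were tested, 2 were higher and 2 lower. The median log2(fold change) of their most abundant transcripts was −0.11, against −0.03 for all genes. After centring by GC content it was −0.17, against −0.04 for all genes. The median level of these transcripts was 4700 normalised counts, against 193 for all genes. Here and in the lists below, medians after centring leave out genes whose most abundant transcript had no known sequence, such as *Tm7sf2*. The medians before and after centring can thus cover different genes. Without a trend in the prior variance, the call of *Setd2* (adjusted p = 0.0537) and all calls of pathway genes but that of a *Dhdds* isoform were lost, with adjusted p-values from 0.0725 (*Elovl5*) to 0.178 (*Mvd*).

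*Mvd*, which makes isopentenyl diphosphate 1 step before *Idi1*, was higher (log2(fold change) 0.47, standard error 0.09, adjusted p = 0.0489), with 9360 normalised counts in KD and 6751 in WT. *Lbr*, a nuclear envelope protein with sterol C14 reductase activity, was lower (−0.91, standard error 0.07, adjusted p = 0.0160), with 3692 in KD and 6927 in WT. *Hsd17b7*, a sterol 3-ketoreductase, was lower as well (−0.66, standard error 0.09, adjusted p = 0.0260), with 3826 in KD and 6057 in WT.

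A transcript of *Tm7sf2*, which carries the same C14 reductase activity as *Lbr*, was called as higher (ENSMUST00000025711.11, log2(fold change) 0.75, standard error 0.11, adjusted p = 0.0291). It held 52.2% of the gene's level. The next isoform, ENSMUST00000025713.11 with 33.5%, had a log2(fold change) of −0.51 (interval −0.82 to −0.20, adjusted p = 0.0682), which was called as lower after centring by GC content (adjusted p = 0.0441). The isoforms of *Tm7sf2* thus had differences of opposite sign, and its count as a higher enzyme rests on the first alone.

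**Figure D4:**
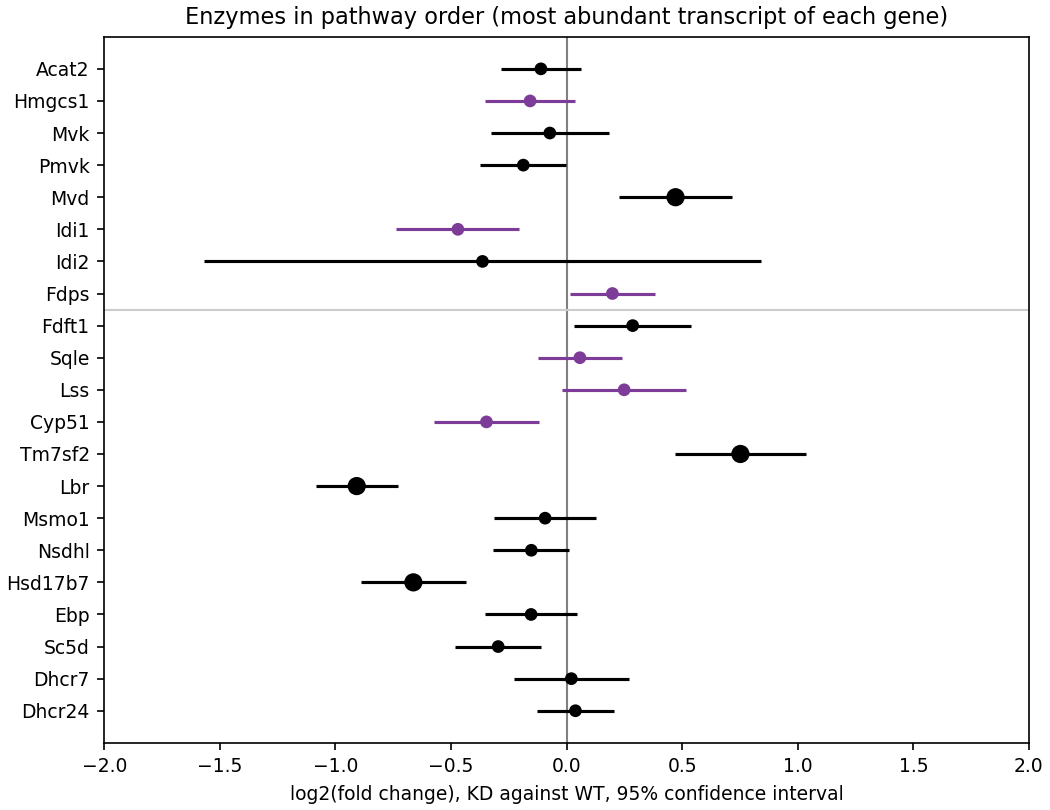
Log2(fold change) of KD against WT with 95% confidence intervals (horizontal) for the most abundant transcript of the 21 listed enzymes, from acetyl-CoA at the top to cholesterol at the bottom, with a line between the mevalonate and the squalene steps. The 4 enzymes in large points (*Mvd*, *Lbr*, *Hsd17b7* and *Tm7sf2*) passed the test, the 6 enzymes of the set are purple, and 8 of the 21 points lie above 0 and 13 below.

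Of the other 10 genes that process SREBP, all tested, 2 were higher and 0 lower. *Scap*, the escort of SREBP, rose by 0.43 on the log2 scale (standard error 0.09, adjusted p = 0.0483), from 2682 in WT to 3623 in KD. *Vcp*, the ATPase that extracts proteins such as ubiquitinated INSIG1 from the membrane, rose by 0.51 (standard error 0.10, adjusted p = 0.0443). The median log2(fold change) of these 10 genes was 0.14, and −0.003 after centring by GC content.

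Of 18 genes for the uptake, transport and storage of cholesterol, 16 were tested, 2 were higher and 2 lower. *Stard4*, a sterol transfer protein and known SREBP2 target, fell with a log2(fold change) of −0.65 (standard error 0.06, adjusted p = 0.0190), from 10124 in WT to 6463 in KD. *Cav1*, the coat protein of caveolae, fell with −1.50 for its main transcript (adjusted p = 0.0144), which held 57.0% of the gene's level. The next *Cav1* isoform, with 35.3%, had −0.30 and was not called (adjusted p = 0.0835). *Soat2* and a transcript of *Scarb1* that held 16.0% of the gene's level rose by 0.91 and 0.78 (adjusted p = 0.0267 and 0.0259). The median over the 16 genes was 0.21, and 0.10 after centring by GC content.

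Of 10 genes of the LXR receptors and sterol efflux, 5 were tested, 2 were higher and 0 lower, with a median log2(fold change) of 0.73, and 0.51 after centring by GC content. Among those not called, *Abca1* averaged only 23.3 normalised counts, with a 95% confidence interval from −0.53 to 2.63. The main transcript of *Abcg4* had an interval from −0.19 to 1.47. *Nr1h2*, which encodes LXRβ, rose by 0.73 in its main transcript (adjusted p = 0.0235), and *Apoe*, a lipoprotein component, rose by 0.86 in its main transcript, from 295 in WT to 535 in KD (adjusted p = 0.0245).

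Of 17 genes of fatty acid synthesis, 16 were tested, 3 were higher and 1 lower, with a median of 0.06, and −0.03 after centring by GC content. *Scd1*, the stearoyl-CoA desaturase, rose by 0.88 (adjusted p = 0.0239), a minor isoform of *Elovl1* by 1.05 (adjusted p = 0.0370) and *Gpam* by 0.48 (adjusted p = 0.0446). *Elovl5*, an elongase of polyunsaturated fatty acids, fell with a log2(fold change) of −1.64 (adjusted p = 0.0144), from 4599 in WT to 1479 in KD.

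Of 14 genes of the non-sterol isoprenoid branch, all tested, 3 were higher and 0 lower, with a median of 0.0002, and 0.14 after centring by GC content. The median after centring left out *Rce1* (−0.23) and *Pggt1b* (−0.07), so the rise is not due to centring alone. *Fntb*, the beta subunit of farnesyltransferase, rose by 0.76 (adjusted p = 0.0192). A *Rabggta* isoform with 19.4% of the gene's level rose by 0.96 (adjusted p = 0.0400). A *Dhdds* isoform with 0.190% of the gene's level was called as higher, with 31.2 normalised counts in KD and a level near 0 in WT, so no fold is given. Its read-assignment uncertainty was 2.12 on the log2 scale (SD).

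The higher and lower calls among these genes also differed in base composition, which varied with the differences over the whole table. The 5 lower transcripts of the other pathway genes had a GC content of 42.6% to 44.8%, and the 15 higher ones with a known sequence had 49.8% to 61.2%. After centring by GC content, 5 of the 5 lower transcripts were still called (*Lbr*, *Hsd17b7*, *Stard4*, *Cav1* and *Elovl5*), and 5 of the 15 higher ones, of *Apoe*, *Nr1h2*, *Fntb* and *Dhdds*. Over the whole table, centring took the number of higher calls from 1861 to 875 and of lower calls from 1451 to 1063. The GC range of all called transcripts was not examined, so nothing particular to the pathway genes is shown. *Mvd* and *Scap* were no longer called (log2(fold change) 0.25 and 0.20, adjusted p = 0.189 and 0.237), and *Lbr* had −0.80 (adjusted p = 0.0215).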

How the data were processed

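RNA-seq of NIH/3T3 cells was available as 1 table of transcripts, made by the authors with BBDuk, Kallisto and Sleuth. The mean of each transcript was deposited on the natural log scale of estimated counts divided by a size factor plus 0.5, pooled over 2 KD and 2 WT libraries, with its variance over the libraries, its variance from read assignment and the remaining variance within groups. The table's p-values, q-values and test scores, and a table of combined p-values for genes, hold the authors' own comparison and were not used. The labels name GRCm38, and the transcriptome index is not given in the sources used here.

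The sum of squares between groups was computed as 3 times the total variance minus 2 times the variance within groups. Its square root is the size of the difference between 2 groups of 2 libraries, and is by construction the size of the effect fitted by Sleuth. The sign of that deposited effect gave the direction. limma 3.58.1 (R 4.3.3) moderated the within-group variance (2 residual and 2.67 prior degrees of freedom, trend on the mean), and two-sided p-values were adjusted by Benjamini-Hochberg over all 34200 transcripts. The procedure was tested on simulated data, where large differences were recovered. Differences near the size of those of the most abundant transcripts of the 8 genes were not recovered, nor were others well above that size. Far fewer transcripts were changed there than were called here, which makes the adjustment stricter, so that recovery does not carry over. In the data, differences of similar size were called in *Mvd* (0.47) and *Scap* (0.43) and not in *Idi1* (−0.47). A missed call among the 8 genes does not show that a difference is absent. Levels are the exponential of the group mean minus 0.5.

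Positions, lengths and GC content came from GENCODE M21 (GRCm38), which matched 98.6% of transcripts by identifier and version. GC centring used 50 classes with a running median over 5, from transcripts with a mean of at least 100 counts. The Wald-type test was computed with the authors' shrunken variance and a normal distribution, so it is not independent of their own comparison. Apart from a few uncalled genes given as limits, named pathway genes are the called members with the largest rises and falls, up to 3 each way for each list. Results of 2 further genes named by the rule are not reported here, and the lists were counted without them. The genes of the set, the lists and the main test were chosen with earlier results of these data known. Depth is unknown, so no counting interval is given, and 2 libraries a group gave intervals of ±0.18 to ±0.27 on the log2 scale for the most abundant transcripts of the 8 genes. Library values, splicing and the other experiments were not analysed here.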

Additional observations from a re-analysis of the deposited data

How the results depend on the processing

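No paired analysis was possible because the columns carry no replicate, and leaving out a replicate was not run for the same reason. The number of called transcripts (3312), of called member transcripts (1) and of pathway genes called in the lists (20, *Srebf2* included) moved with the test. Without a trend in the prior variance they were 127, 0 and 1 (a *Dhdds* isoform). In the Wald-type test they were 6233, 3 and 40, and with the variance held at or above the read-assignment variance, chosen after seeing the data, 4996, 3 and 36. With only transcripts of at least 100 counts they were 4965, 3 and 36, where the variance prior was refitted as well as fewer transcripts tested. Centring on the median effect (0.05) gave 2 member transcripts and moved the share of calls that were higher in KD from 56.2% to 46.6%. Centring by GC content gave 1938, 0 and 12, with 45.1% higher. Relative to *Actb*, whose main transcript was itself 0.46 higher in KD on the log2 scale, the counts were 9828, 6 and 50, with 5.39% higher, and the median log2(fold change) of the 8 genes was −0.51.

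Relative to *Actb*, the direction turned for the main transcripts of *Srebf2* (−0.22), *Fdps* (−0.26), *Sqle* (−0.40), *Lss* (−0.21) and *Scap* (−0.022). Centring by GC content turned the main transcript of *Srebf2* (−0.0034) and the second one of *Hmgcs1* (0.058). *Idi1*, *Cyp51* and *Insig1* kept their direction under centring by GC content. Centring on the median or on *Actb* takes a positive constant off every difference, so it could not turn one that was already below 0. The cause of these changes was not tested. The lack of library values limits all calls to the variances as deposited.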
